A study of Mus musculus with 6 samples.

Results

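DNA damage signalling and repair was followed through 41 genes in cultured fibroblasts that have or lack Zmpste24, an endoprotease that cuts prelamin A on its way to mature lamin A. The genes were fixed by name and fall into 8 groups: damage signalling and checkpoint, homologous recombination, RecQ helicases, the Fanconi anaemia pathway, non-homologous end joining, base excision and single-strand break repair, nucleotide excision repair and mismatch repair. Each gene was read through its brightest probe set that carries its symbol alone. Of the 41 genes, 40 have such a probe set, among 18193 genes named in this way, and 39 were bright enough to be tested. Xrcc2, a homologous recombination gene, has no probe set with its symbol alone and is not analysed here. Bard1, the partner of BRCA1, lay below the brightness filter. Wild-type (Zmpste24+/+) and Zmpste24-/- mouse embryonic fibroblasts on the C57BL/6 strain, derived from E13.5 embryos, were grown in medium with fetal calf serum to passage 3. There were 3 cultures of each genotype, numbered 1 to 3, and RNA of each was hybridised to 1 Affymetrix Mouse Genome 430 2.0 array. The labels do not say whether a culture came from 1 embryo or from several, nor what part of Zmpste24 is deleted.

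As background, the kinases ATM and ATR sense double-strand breaks and stalled replication forks and signal through CHK2 and CHK1. Homologous recombination and the Fanconi anaemia pathway work mainly in S and G2 phase, when a sister chromatid is at hand, and many of their genes are transcribed under E2F control as cells enter S phase. End joining and excision repair act in all phases of the cycle. Fibroblasts that accumulate prelamin A are known for nuclear shape defects and delayed recruitment of repair proteins, which a transcript measurement does not show.

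Signal is linear intensity, scaled by the authors to one level on all arrays, and differences are given on the log2(signal + 16) scale, which understates the change of dim genes. The test was limma, an adjusted p is its Benjamini-Hochberg value over all 27022 tested probe sets, and the threshold was 0.05. The Zmpste24 probe set had 3849.9, 2249 and 2043 in wild-type cultures 1, 2 and 3 and 365, 182 and 226 in Zmpste24-/- cultures 1, 2 and 3. Both cultures numbered 1 stood apart from the other 4. Their arrays correlated with each other at 0.984 across probe sets, with the others at 0.953 to 0.959, and the other 4 among themselves at 0.980 to 0.984. Xist was 5324, 69.3 and 43.7 in wild type and 6669, 4766 and 6660.1 in Zmpste24-/-, and the Y-linked Eif2s3y was 1.5, 531 and 1341 and 14.6, 10.4 and 15.7, and Kdm5d 12.9, 326 and 415 and 5.98, 0.495 and 11.8. In numbers 2 and 3, genotype and sex of the embryos therefore cannot be told apart. Within wild type the same holds for sex and number 1 against numbers 2 and 3. Fibroblast markers had a summed signal of 120233 to 149906 over 12 genes, yet 6 were called higher and 3 lower in number 1. Dcn and Lum, for example, had means of 5345 and 7220 in number 1 and 706 and 508 in the others. Proliferation markers summed to 8341 to 8452 in number 1 and to 34101 to 38464 in numbers 2 and 3, over 14 genes that were all called lower in number 1. Macrophage markers, 12 genes, summed to 7155 to 13979 in number 1 and 1303 to 2065 in the others, and 10 of 11 tested were called higher in number 1. No macrophage gene is listed at 0 in any culture, but a value above 0 is not by itself detection. C1qa was at 9.02 and 8.67 in wild-type cultures 2 and 3 and at 3.40 and 3.18 in Zmpste24-/- cultures 2 and 3. Epithelial markers summed to 560 to 608 in number 1 and 2964 to 3412 in the others. Of 4 tested, 2 were called lower in number 1, Krt18 and Krt19, and 0 higher. Epcam and the dim Cdh1 had means of 300 and 15.7 in number 1 and 252 and 12.2 in the others. Endothelial markers summed to 529 to 832 and 608 to 696, and neural and glial markers to 707 to 1313 and 953 to 1049.5. In a culture, fewer cells of a kind and less RNA per cell cannot be told apart.

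No repair gene passed the test between genotypes. None of the 39 tested members passed the threshold between wild type and Zmpste24-/-, in limma without a block or with the replicate number as a block. The background was 0% of probe sets without a block, 0.0185% with it and 0.0407% with number 1 alone as a block, where again 0 members were called. Without a block 0 members had an unadjusted p under 0.05, and with the block 2 had, Chek1 and Blm, against 8.99% of all probe sets. The members' median log2 difference, Zmpste24-/- minus wild type, was 0.039, with 22 of 39 above 0, beside a median of -0.0048 over all tested probe sets. Medians within numbers 1, 2 and 3 were 0.099, 0.029 and 0.058. In 11 members (28.2%) the Zmpste24-/- value was the higher in every same-numbered pair and in 1 (2.56%) the lower, beside 15.8% and 16% of all probe sets. The genotypes did not overlap in 1 member, Wrn, which was higher in Zmpste24-/-, where the background is 2.22%, and 0 members were lower without overlap, where it is 3.03%. With numbers 2 and 3 alone the median was 0.00014, and no member was called. Without wild-type replicate 1 the members' median was -0.085 and the differences of Blm, Chek1, Brca1 and Mre11a turned to -0.33, -0.060, -0.22 and -0.30. In 28 of the 39 the genotype difference changed sign when some 1 array was left out. In simulated data, the genotype fit recovered 0% of added changes of 1 log2 unit without a block and 34% with it. The absence of calls therefore does not show that no member differs.

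**Figure D1:**
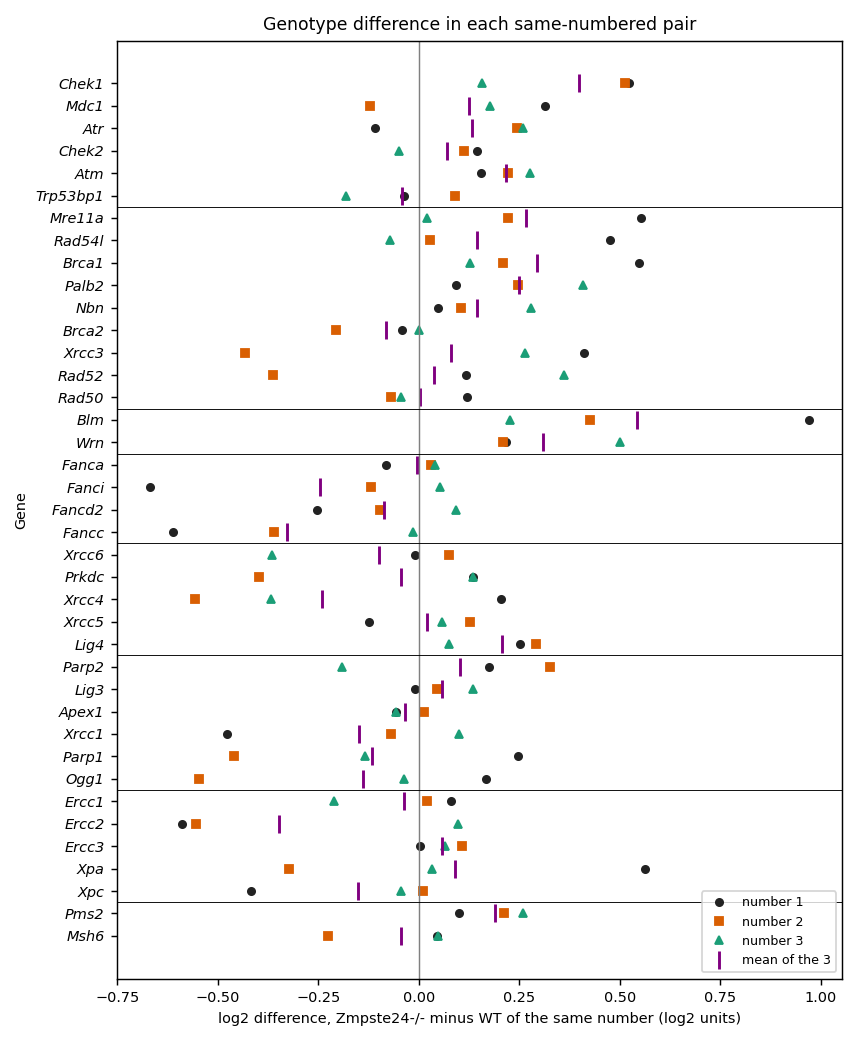
Log2 difference of Zmpste24-/- minus wild type in each same-numbered pair for the 39 tested repair genes, by repair pathway, with symbols for culture number and a purple bar for the mean of the 3 pairs. Pairs lie on both sides of 0 for most genes, and Blm lies above it in all 3, from 0.23 to 0.97.

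By culture number 21 of the 39 tested repair genes were called. The cultures numbered 1 were set against those numbered 2 and 3 in a model with genotype as a term; what the number marks is not given in the labels, and this contrast was chosen because number 1 was known to stand apart. Lower in number 1 were 16 members, and higher were 5. Over all probe sets 22% were called lower and 25.4% higher and in either direction 47.4%, beside 53.8% of the members. Number 1 did not overlap the others on the lower side in 17 members and on the higher side in 8, where the background is 27.2% and 31.2%. The median log2 difference of the members was -0.24, against 0.038 over all probe sets. The median was -0.30 in wild-type and -0.23 in Zmpste24-/- cultures, and 20 members were lower and 12 higher in number 1 in both genotypes. Within wild type number 1 cannot be told apart from sex, which also limits comparing this contrast between genotypes. The difference between genotypes in this contrast, an interaction, was called for 0 members and for 0.0259% of all probe sets. Its unadjusted limma p was under 0.05 in 2 of the 39 members and in 1240 of all 27022 tested probe sets. Number 3 differed from number 2 by a median of 0.049, with 0 members and 0.0074% of all probe sets called by limma. The unadjusted limma p of that comparison was under 0.05 in 3 of the 39 members and in 1851 of all 27022 tested probe sets. The lower proliferation markers and higher macrophage markers of number 1, given above, moved with this difference, and their part in it was not tested.

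**Figure D2:**
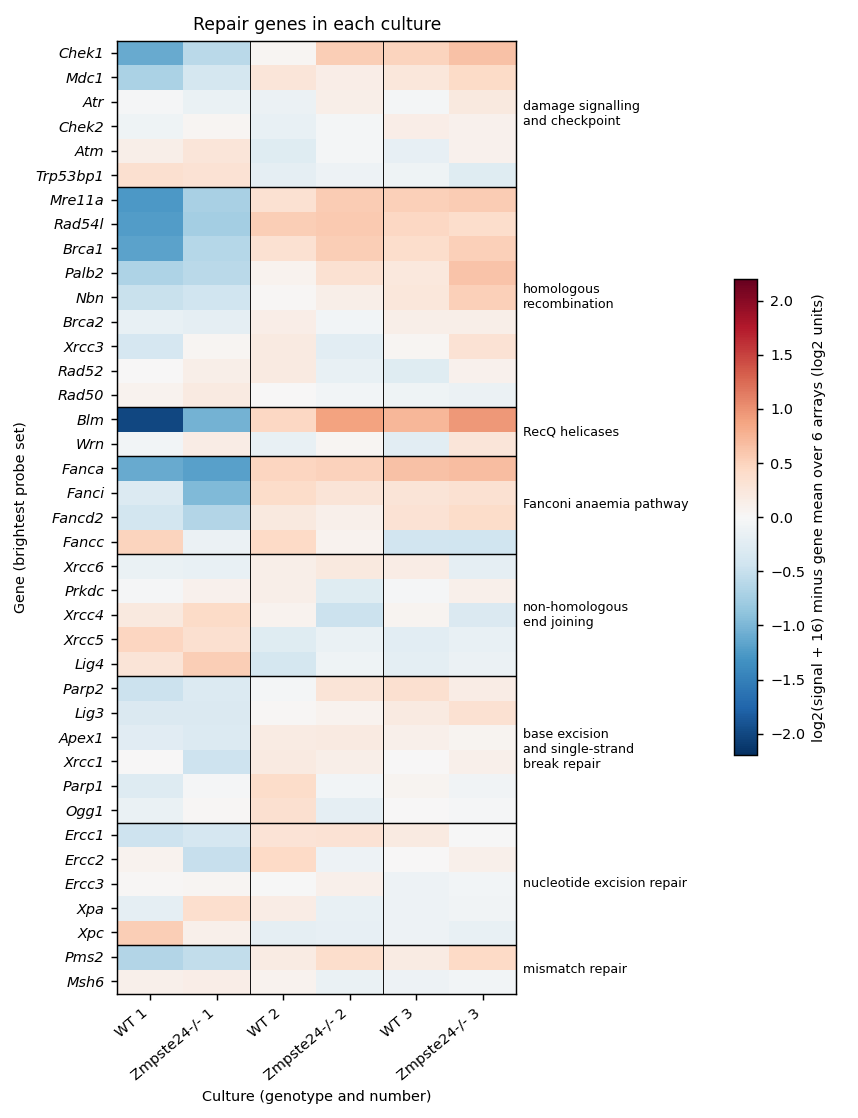
Colour map of log2(signal + 16) minus each gene's mean over the 6 arrays, in log2 units, with the 39 tested repair genes as rows by pathway and the 6 cultures as columns. The 2 columns of number 1 are blue for genes such as Blm, Fanca and Brca1 and red for Trp53bp1, Xrcc5 and Lig4, while columns of numbers 2 and 3 resemble each other.

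Promoters are shown for 3 genes that were lower in number 1 and for 1 that was higher, because E2F control is a known link between repair genes and the cell cycle. Each window runs from 250 bases before to 50 bases after the gene's start, from RefSeq (GRCm38.p6), with matches to the E2F motif in capitals. The motif was searched on both strands in 4 forms, namely TTCCCGC first, then TTCGCGC, further TTGCCGC, and lastly TTGGCGC.
Blm (chr7:80534949-80535248, minus strand): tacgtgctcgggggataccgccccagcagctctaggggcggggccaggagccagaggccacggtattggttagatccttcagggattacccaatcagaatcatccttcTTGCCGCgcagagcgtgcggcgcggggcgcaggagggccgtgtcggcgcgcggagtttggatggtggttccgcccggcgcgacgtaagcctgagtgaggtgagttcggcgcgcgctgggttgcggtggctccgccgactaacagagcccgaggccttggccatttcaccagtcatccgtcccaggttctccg
Brca1 (chr11:101551906-101552205, minus strand): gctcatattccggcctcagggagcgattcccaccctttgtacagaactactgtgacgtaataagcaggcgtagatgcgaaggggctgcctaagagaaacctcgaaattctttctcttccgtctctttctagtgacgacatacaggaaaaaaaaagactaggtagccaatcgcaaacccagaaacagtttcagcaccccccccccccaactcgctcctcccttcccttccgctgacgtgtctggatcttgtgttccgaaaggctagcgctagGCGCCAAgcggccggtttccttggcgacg
Mdc1 (chr17:35841248-35841547, plus strand): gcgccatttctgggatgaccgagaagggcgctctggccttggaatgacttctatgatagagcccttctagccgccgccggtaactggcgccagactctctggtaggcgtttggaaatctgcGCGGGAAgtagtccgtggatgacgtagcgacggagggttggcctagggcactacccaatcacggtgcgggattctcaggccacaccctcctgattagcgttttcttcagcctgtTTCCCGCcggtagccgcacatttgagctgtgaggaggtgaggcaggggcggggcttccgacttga
Trp53bp1 (chr2:121271358-121271657, minus strand): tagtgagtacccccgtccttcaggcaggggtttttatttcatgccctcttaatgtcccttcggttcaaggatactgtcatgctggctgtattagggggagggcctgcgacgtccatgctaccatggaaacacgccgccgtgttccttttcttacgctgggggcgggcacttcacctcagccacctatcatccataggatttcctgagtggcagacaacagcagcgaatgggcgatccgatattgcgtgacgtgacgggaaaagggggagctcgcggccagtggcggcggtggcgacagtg
Blm holds 1 match, beginning 142 bases before the start, Brca1 holds 1, beginning 21 bases after it, and Mdc1 holds 2, at 129 and 15 bases before it. Trp53bp1 holds none of these letters in its window. The genes shown do not stand for their groups. Fanca and Mre11a, called lower, hold no match, and Atm and Lig4, called higher, hold a match. Of the 33 members with a window, 18 (54.5%) held a match, against 10.9% of 27025 genes. By culture number, 8 of 14 members called lower held one, as did 2 of 4 called higher, 7 of 14 not called and Bard1, which was not tested. A CCAAT box, searched as CCAAT on both strands, was in 60.6% of members and 41.1% of all genes. The CHR element, searched as TTTGAA and also as TTCGAA on both strands, was in 9.09% and 21.7%. The letters of CCAAT and of an E2F match can overlap, which occurred in 1 of the 19 member windows with an E2F match.

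In damage signalling 4 of 6 genes were called by culture number, Chek1 and Mdc1 lower and Trp53bp1 and Atm higher in number 1, with a median of -0.085. Over all probe sets 47.4% were called, 22% lower and 25.4% higher, and the members' pathway counts below have the same background. Fell and rose are used here of number 1 relative to numbers 2 and 3. Chek1 encodes the kinase that ATR activates to hold the cycle. Its signal was 162 and 240.1 in wild-type and Zmpste24-/- culture 1 and 380.1, 549, 524 and 586 in wild-type and Zmpste24-/- culture 2 and wild-type and Zmpste24-/- culture 3. Both cultures numbered 1 lay below all others, and Chek1 fell by 1.28 (SE 0.13, limma adjusted p = 1.2e-04). Mdc1, the scaffold that binds phosphorylated histone H2AX at breaks, was at 215 and 271 in number 1 and 433, 397, 428 and 486 in the others, again without overlap, and fell by 0.81 (SE 0.13, limma adjusted p = 0.00153). Trp53bp1 encodes 53BP1, which shields break ends from resection and favours end joining. It went the other way, at 2653 and 2588 in number 1 against 1804, 1921, 1955 and 1723, a rise of 0.50 (SE 0.083, limma adjusted p = 0.00152) with no overlap. Atm had 717, 547 and 576 in wild-type cultures 1 to 3 and 799, 641 and 701 in Zmpste24-/- cultures 1 to 3. It was called higher in number 1 (0.30, limma adjusted p = 0.0413), a call lost after quantile normalization, after median centring, without the intensity trend, without the genotype term and when any 1 array was left out. Atm was also higher in Zmpste24-/- in every pair, by 0.15, 0.22 and 0.28 (mean 0.22, SE 0.095 with the replicate block, unadjusted p = 0.0511, limma adjusted p = 0.557). Atr, the kinase of stalled forks, had 242, 226 and 240.3 and 223, 271 and 291, and Chek2, the target of ATM, had 310.2, 298 and 371 and 344, 323 and 358. For both, groups overlapped by genotype and by number. With the replicate block, Chek1 had the smallest genotype p of the members. Its pair differences were 0.52, 0.51 and 0.16, with a mean of 0.40 (SE 0.12, limma adjusted p = 0.477), and it did not pass. The other tested Chek1 probe sets gave 0.31, 0.093 and -0.16 by genotype.

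**Figure D3:**
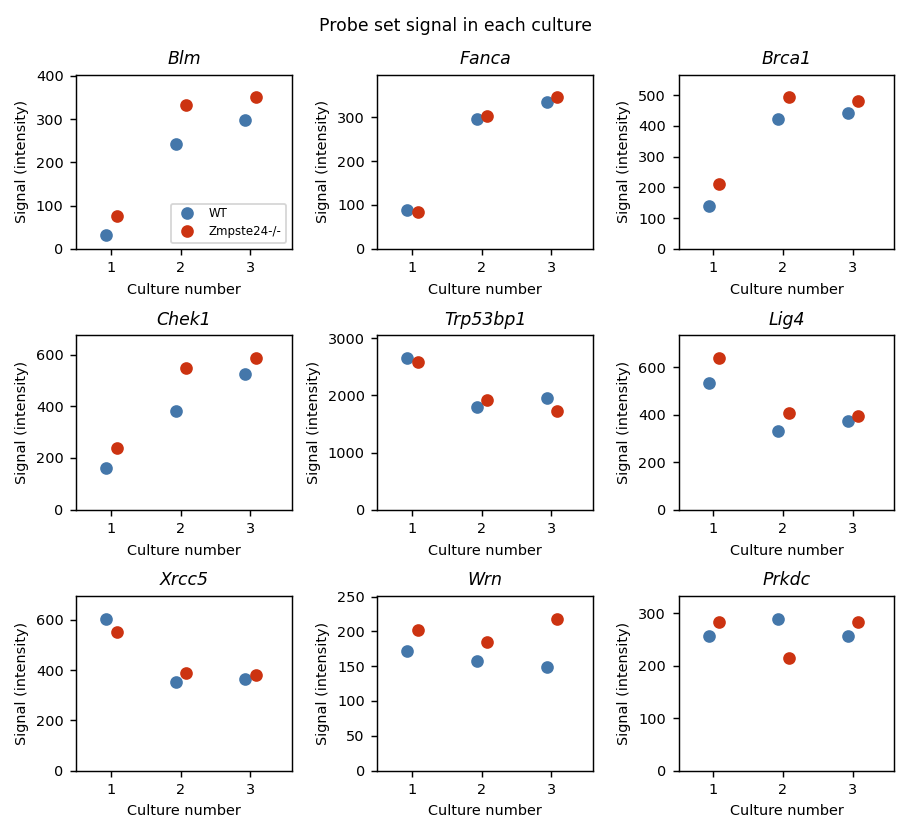
Probe set signal, as linear intensity, in each culture for 9 repair genes, with culture number on the horizontal axis, wild type in blue and Zmpste24-/- in red. The first 4 genes are lowest in both cultures numbered 1 (Blm at 30.8 and 75.8), Trp53bp1, Lig4 and Xrcc5 are highest there, and Wrn and Prkdc show no such order.

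Homologous recombination genes were mostly lower in number 1: 5 of 9 tested members were called lower and 0 higher, with a median of -0.69. Over all probe sets 22% were called lower and 25.4% higher. Mre11a, the nuclease of the MRN complex that starts end resection, had 183 and 277 in wild-type and Zmpste24-/- culture 1 and 590.3, 692, 676 and 686 in wild-type and Zmpste24-/- culture 2 and wild-type and Zmpste24-/- culture 3. The gap is wider than the spread of either set, and Mre11a fell by 1.48 (SE 0.14, limma adjusted p = 7.0e-05). Rad54l, a motor protein of the strand exchange step, was at 71.4 and 105 against 281, 287, 265 and 251 and fell by 1.48 (SE 0.17, limma adjusted p = 2.0e-04). Brca1, which promotes end resection, was at 138 and 209.8 against 424, 494, 441 and 483 and fell by 1.35 (SE 0.14, limma adjusted p = 1.2e-04). In all 3 genes the Zmpste24-/- culture 1 was above the wild-type culture 1 and both were below every other culture. Palb2, which joins BRCA1 to BRCA2, and Nbn, the third MRN subunit, fell by 0.95 and 0.69 (limma adjusted p = 0.00204 and 0.00126). Rad50, the ATPase of the same complex, had a difference of 0.19 by number, of the opposite sign, and did not pass (limma adjusted p = 0.184). Brca2, a mediator of strand exchange, had 199, 248 and 247 and 193, 213 and 247. Its number 1 cultures were the lowest, yet the difference of -0.27 did not pass (limma adjusted p = 0.153). Rad52 and Xrcc3 differed by 0.11 and -0.24, also without passing. Bard1 was dim, at 2.65, 30.3 and 32.4 in wild type and 2.13, 5.59 and 29.0 in Zmpste24-/-, and was not tested; with no brightness filter it was called lower in number 1. By genotype 8 of the 9 were above 0 with a median of 0.14. Brca1 and Mre11a had the smallest p with the replicate block, at 0.29 and 0.27 (limma adjusted p = 0.558 and 0.587), and for both genes the pair difference was widest in number 1, at 0.55 and 0.55.

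Of the RecQ helicases, Blm was called lower in number 1 and Wrn was not called. Blm encodes the helicase that dissolves recombination intermediates without crossing over. Its signal was 30.8 and 75.8 in wild-type and Zmpste24-/- culture 1 and 243, 332, 297 and 351 in wild-type and Zmpste24-/- culture 2 and wild-type and Zmpste24-/- culture 3, or 5.73-fold lower in number 1 by the ratio of means. Blm had the lowest log2 difference of the tested members (-2.28, SE 0.19, limma adjusted p = 4.1e-05). It was higher in Zmpste24-/- in each pair, by 0.97, 0.43 and 0.23 (mean 0.54, SE 0.18, limma adjusted p = 0.484 with the replicate block), and did not pass. Wrn encodes the helicase and exonuclease missing in Werner syndrome, a premature ageing disorder. It had 171, 158 and 149 in wild type and 202, 185 and 218 in Zmpste24-/-, so that the groups did not overlap, although they lie close. The genotype difference was 0.31 (SE 0.14, unadjusted p = 0.0644 and limma adjusted p = 0.578 with the replicate block) and did not pass. A second Wrn probe set gave 0.097 by genotype. By culture number Wrn differed by 0.077, which turned negative after quantile normalization (-0.055) and median centring (-0.031) and was not called in any of the 3.

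Fanconi anaemia genes were lower in number 1 in 3 of 4, and these 3 were called, beside 22% of all probe sets called lower. Fanca, a subunit of the core complex that ubiquitinates FANCD2 and FANCI, was at 88.6 and 82.8 in wild-type and Zmpste24-/- culture 1 and 297, 303, 336 and 345 in wild-type and Zmpste24-/- culture 2 and wild-type and Zmpste24-/- culture 3. The genotypes were close at every number, and Fanca fell by 1.72 (SE 0.14, limma adjusted p = 3.6e-05). Fanci and Fancd2, which form the clamp on crosslinked DNA, fell by 0.96 and 0.78 (limma adjusted p = 0.00233 and 0.00746), with Fanci at 194 and 116 in number 1 and 327, 299.8, 299.7 and 311 in the others. Fancd2 was at 82.6 and 66.7 against 134, 125, 145 and 156. Without Zmpste24-/- replicate 1 the Fancd2 call was lost (limma adjusted p = 0.0779). Fancc, another core subunit, had 165, 158 and 80.2 in wild type and 102, 119.8 and 79.3 in Zmpste24-/-, and differed by 0.27 by number without passing. It was the 1 member lower in Zmpste24-/- in every pair, at -0.61, -0.36 and -0.014 (limma adjusted p = 0.623 with the replicate block). The dimmest of its 3 tested probe sets had the opposite sign by genotype, at 0.69.

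Non-homologous end joining was the group with 0 members called lower in number 1 and 2 of 5 called higher, with a median of 0.48. Over all probe sets 22% were called lower and 25.4% higher. Outside the 41 members, 3 further end joining genes were tested, with 0 called and a median of 0.0024. Lig4, the ligase that seals the ends, had 533 and 638 in wild-type and Zmpste24-/- culture 1 and 329, 407, 375 and 396 in wild-type and Zmpste24-/- culture 2 and wild-type and Zmpste24-/- culture 3, and rose by 0.61 (SE 0.12, limma adjusted p = 0.0029). Xrcc5, which encodes the Ku80 subunit that binds the ends, was at 604 and 552 against 354, 389, 367 and 382 and rose by 0.61 (SE 0.12, limma adjusted p = 0.00324). For both genes the number 1 cultures were above the other 4. Xrcc6, which encodes its partner Ku70, differed by -0.23, with overlap and without passing. Xrcc4, the scaffold of the ligase, had 233 and 271 in number 1 and 211, 138, 206 and 156 in the others, a difference of 0.48 that did not pass (limma adjusted p = 0.0623). The gap was 0.15 in wild type and 0.82 in Zmpste24-/-. Prkdc, the catalytic subunit of DNA-PK, had 256, 289 and 256 in wild type and 283, 215 and 283 in Zmpste24-/-. For Prkdc the groups overlapped by genotype and by number, and its number difference of 0.050 changed sign with the scaling of the arrays. By genotype the group's median was -0.043 and Lig4 was higher in every pair (0.21, limma adjusted p = 0.609 with the replicate block).

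All 6 base excision and single-strand break repair members were on the lower side in number 1, of which 3 were called, with a median of -0.38. Over all probe sets 22% were called lower. Outside the 41 members, 16 further genes of this pathway were tested, 8 on the higher and 8 on the lower side. Of these, 7 were called lower and 3 higher, with a median of 0.0195. Apex1, the endonuclease that cuts at abasic sites, had 5745 and 5519 in wild-type and Zmpste24-/- culture 1 and 7767, 7834, 7393 and 7114 in wild-type and Zmpste24-/- culture 2 and wild-type and Zmpste24-/- culture 3. It fell by 0.42, a small change against a small spread (SE 0.052, limma adjusted p = 3.4e-04). Parp2, the second poly(ADP-ribose) polymerase, fell by 0.58 from 727, 915, 957 and 836 to 532 and 602 (limma adjusted p = 0.00586). Lig3, the ligase that works with XRCC1, fell by 0.48 from 457, 472, 512 and 564 to 356 and 354 (limma adjusted p = 0.00864), a call lost without Zmpste24-/- replicate 1 (0.0796). Xrcc1 differed by -0.33 and the glycosylase gene Ogg1 by -0.088, and neither passed. Parp1, the main nick sensor, had 1039.7, 1666 and 1309 in wild type and 1236, 1207 and 1192 in Zmpste24-/- by its brightest probe set, which differed by -0.23 by number and did not pass. Its other bright probe sets were called lower, at -1.0 and -0.92 (limma adjusted p = 1.3e-04 and 2.6e-04), so the level of Parp1 by number depended on the probe set. By genotype 4 of 6 were below 0, with a median of -0.075.

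Nucleotide excision and mismatch repair genes split. Ercc1 encodes the partner of the nuclease that cuts beside bulky lesions. Its signal was 2243 and 2370.0 in wild-type and Zmpste24-/- culture 1. It was 3805, 3858, 3536 and 3052 in wild-type and Zmpste24-/- culture 2 and wild-type and Zmpste24-/- culture 3. Ercc1 fell by 0.62 (SE 0.080, limma adjusted p = 4.0e-04). Xpc, the sensor of helix distortion, was at 293 and 215 against 171, 172, 181 and 175 and was called higher (0.49, limma adjusted p = 0.0335). That call was lost with no filter (limma adjusted p = 0.0756), after quantile normalization (0.101) and median centring (0.0966), and without wild-type replicate 1, 2 or 3 or Zmpste24-/- replicate 3 (0.0645 to 0.386). Ercc2, the helicase XPD of TFIIH, had 252, 328 and 239 in wild type and 162, 218 and 257 in Zmpste24-/-. It had the lowest genotype difference of the members (-0.35, SE 0.17, limma adjusted p = 0.586 with the replicate block), with opposite signs in numbers 1 and 3 (-0.59 and 0.098). Ercc3, the other TFIIH helicase, and Xpa, which checks the lesion, differed by 0.051 and 0.13 by number and did not pass. Pms2, the endonuclease subunit of MutL, had 166 and 179 in number 1 and 305, 355, 304 and 368 in the others and fell by 0.88 (SE 0.13, limma adjusted p = 7.6e-04). Msh6, which recognises mismatches, had 739, 719 and 632 and 763, 613 and 653; both number 1 cultures were above the others, though the difference of 0.20 did not pass (limma adjusted p = 0.179).

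**Figure D4:**
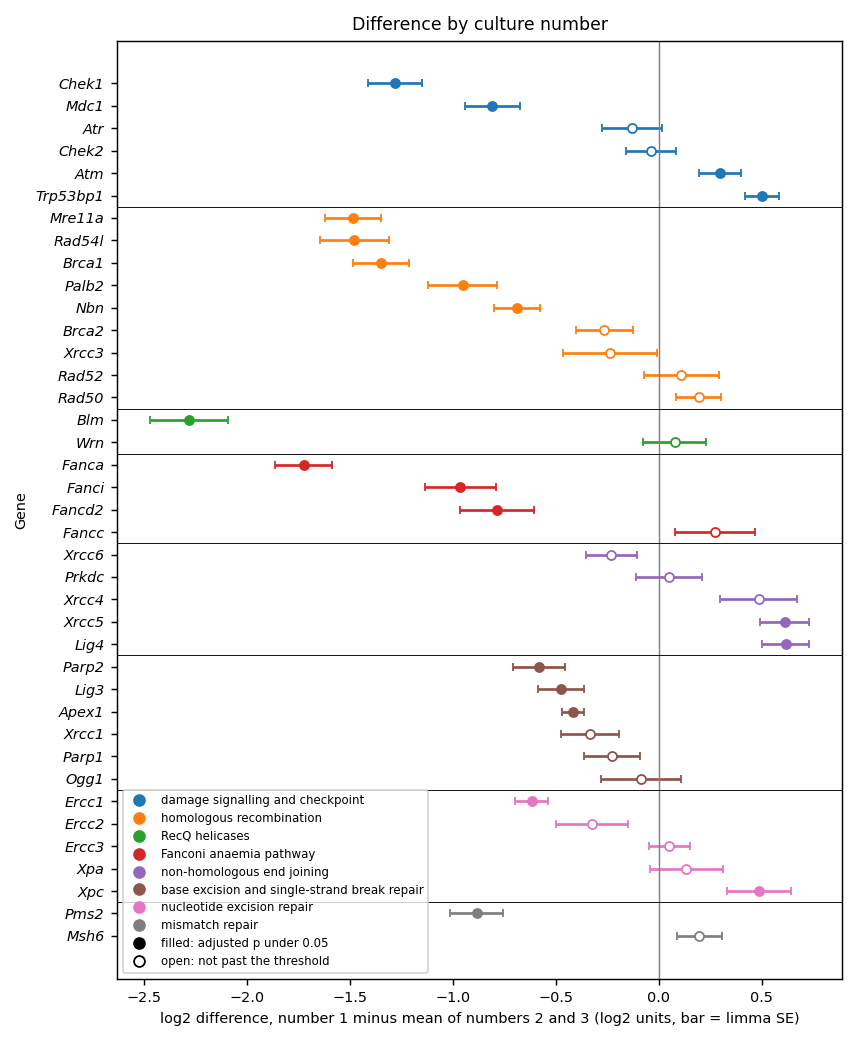
Log2 difference between number 1 and the mean of numbers 2 and 3 for the 39 tested repair genes by pathway, with limma's SE as bars, filled where the adjusted p is under 0.05 and open elsewhere. The values run from -2.28 for Blm to 0.61 for Lig4, and the filled points on the right are Atm, Trp53bp1, Xrcc5, Lig4 and Xpc.

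For some genes the number difference depended on the probe set read. By the array's naming, an ending in _s_at or _x_at, as in the brightest probe sets of Chek1 and Apex1, marks a probe set that other transcripts may also reach. Of 19 members with several tested probe sets, 10 had the same call in all of them, and none had probe sets called in opposite directions. Chek1 was called lower by each of 4, from -1.35 to -0.81, and Apex1 by each of 3. Trp53bp1 was called higher by 3 of 4, at up to 0.80. Mre11a was at -1.48 in its brightest probe set and at -0.051 in the dimmer one. Brca1 had -1.35, 0.060 and -1.43, and Pms2 had -0.88, 0.25 and -0.23.

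**Figure D5:**
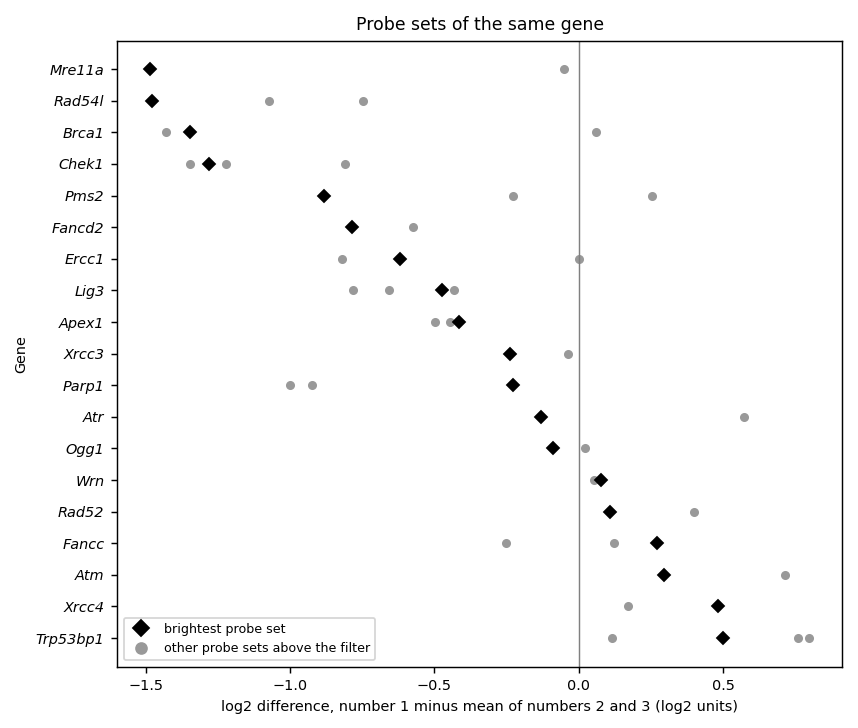
Log2 difference between number 1 and the mean of numbers 2 and 3 for every tested probe set of the 19 repair genes with more than 1, with the brightest as a black diamond and the others as grey circles. The grey points of Parp1 lie below its brightest probe set, and those of Mre11a and Pms2 and 1 of Brca1 (0.060) lie above theirs.

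A further 97 repair genes, listed by pathway, were read in the same way, and 84 were tested. By culture number 42 were called lower and 12 higher in number 1 (64.3% called), with a median of -0.31. Over all probe sets 47.4% were called, 22% lower and 25.4% higher, and the pathway counts below have the same background. By genotype 0 were called with or without the block, and 55 were above 0, with a median of 0.043. Of the 17 tested in homologous recombination, 10 were called lower in number 1 and 1 higher, and the lower ones include Exo1, the resection nuclease (-2.11, 102 and 138 in number 1 and 496, 553, 569.7 and 655 in the others), and the chromatin helicase gene Hells (-1.94). The other genes of smallest p by number were Pcna, the sliding clamp (-1.11), Lig1, the replicative ligase (-1.69), Ung, the uracil glycosylase (-1.89), Tipin (-1.51) and Clspn (-1.73) of the fork protection and CHK1 pathway, Usp1, the deubiquitinase of FANCD2 (-1.31), and Rad23b, a partner of XPC (-0.74). All of these had a limma adjusted p of at most 2.5e-05. The 12 higher calls were 4 of 8 genes in direct reversal and translesion synthesis, where 3 were called lower, 3 of 16 in base excision repair, 2 of 10 in nucleotide excision repair, 2 of 3 in mismatch repair and that 1 in homologous recombination. By genotype the smallest p with the replicate block were those of Rif1, which acts with 53BP1 (0.36, limma adjusted p = 0.488), Cetn2 (0.21, 0.528), the glycosylase gene Smug1 (0.27, 0.554), Hells (0.24, 0.568), Fance (-0.27, 0.58) and Exo1 (0.25, 0.584), and none passed. Smug1 was at 289, 283 and 277 in wild type and 351, 336 and 343 in Zmpste24-/-, without overlap.

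The level to which arrays are scaled shifts the number comparison. Median centring moved the median over all probe sets from 0.038 to -0.070, a shift of -0.11, and quantile normalization moved it to -0.027. The share of lower calls among all called members went from 76.2% to 85.0% and 85.7%, with 17 and 18 called lower and 3 called higher under each. Among all called probe sets the share of lower calls moved the same way, from 46.4% to 55.7% and 51.2%. Across up to 16 alternatives that read the brightest probe set, 14 of the 16 members called lower kept that call in every one, the exceptions being Fancd2 and Lig3. Of the 5 called higher, Trp53bp1, Lig4 and Xrcc5 kept it in all of them.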

How the data were processed

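Total RNA of 6 cultures was hybridised, 1 array per culture. Intensity values on a linear scale were deposited for each probe set; the submitters' processing notes name GCOS, an Affymetrix program, and no version or setting of it is known here. The mean after trimming 2% of probe sets from each end is the same on all arrays, so a change in total RNA per cell cannot be seen. The 64 control probe sets were left out, and 34945 probe sets have 1 symbol in the platform annotation. Values were analysed as log2(value + 16), without the dimmest 40% by mean over all arrays (signal under 39.4). Tests used limma 3.58.1 (R 4.3.3; variance trend on intensity): 3 against 3 cultures by genotype, without a block, and 2 against 4 by number. The number of arrays limits the precision. Without a block, p-values by genotype measure the spread between cultures of the same genotype. The fit by number has a term for each number beside genotype. Its p-values, like those with the replicate block, measure how unevenly the genotypes differ across numbers. They do not measure the spread between numbers, and number 1 is a single number. Values in every culture are given for up to 3 members per pathway by smallest p by number, up to 2 by genotype with the block, and some always; other repair genes were named by smallest p, up to 10 and 6, of which 1 is not reported here. Further members are named because all 41 may be. The members and lists were chosen with earlier results of these data known.

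The labels say that the cultures were made as pairs of the genotypes, without saying what a pair shares. Same-numbered cultures deviated from their genotype means together (correlations 0.83, 0.59 and 0.57, each above 0.1), so values with the replicate block are given; numbers 2 and 3 also correlated across numbers (0.55 and 0.49). The scripts were tested on simulated data. Alternatives were other pseudocounts, filters, normalizations, variance models, blocks and probe sets, and each array left out. Promoter sequences are RefSeq's, with 33 of 41 members matched by symbol. Figures were drawn with matplotlib 3.10.9.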

Additional observations from a re-analysis of the deposited data

How the results depend on the processing

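After quantile normalization and median centring, members called higher in number 1 were 3 and 3, and the members' median was -0.32 and -0.34; Prkdc turned to -0.085 and -0.058 and Wrn to -0.055 and -0.031. With probe sets ending in a lone _at, an alternative added after seeing the data, the median was -0.18 and Mre11a, at -0.051, was no longer called (limma adjusted p = 0.881). By genotype, limma called 1 probe set with array weights, 5 with the replicate block, 20 with numbers 2 and 3 alone and 11 with number 1 as one block, which was also added after seeing the data, against 0 without a block. The members' genotype median was 0.00014 with numbers 2 and 3 alone, where the genotype difference of Xrcc1 was 0.015, and with array weights the genotype difference of Prkdc was 0.00891. The replicate block called no member, as did the fit without it. Of the other values of single genes, 291 by number and 255 by genotype kept direction and call, 8 by number were no longer called and 2 became called; the cause was not tested.

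With 1 array left out at a time, genotype calls over all probe sets ranged from 0 to 4, the latter without wild-type replicate 1, and number calls from 9738 to 12225. The members' number median ranged from -0.31 to -0.22, with 3 to 4 members called higher, 15 to 17 called lower and 21 to 28 lower. Their genotype median ranged from -0.085 to 0.077, with 12 to 26 members higher; the low end came without wild-type replicate 1. By number the difference changed sign in 8 of 39 tested members: Atr -0.31 to 0.049, Chek2 -0.095 to 0.017, Ogg1 -0.32 to 0.14, Parp1 -0.50 to 0.043, Prkdc -0.084 to 0.18, Rad52 -0.041 to 0.26, Xpa -0.22 to 0.49 and Xrcc3 -0.48 to 0.011. By genotype it did in 28 of 39, none of them called; these include Blm -0.33 to 1.20, Brca1 -0.22 to 0.68, Chek1 -0.060 to 0.79, Fanci -0.47 to 0.18, Lig4 -0.0097 to 0.40, Mre11a -0.30 to 0.69, Msh6 -0.13 to 0.022, Parp1 -0.28 to 0.054, Pms2 -0.082 to 0.51, Prkdc -0.11 to 0.080, Xpc -0.28 to 0.078 and Xrcc1 -0.25 to 0.045. A lone number 1 culture is then assumed to vary like the others. Signals near the filter of 39.4, as of Bard1, limit what can be compared.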
